A study of Mus musculus with 14 samples.

Results

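Nuclear factor I (NFI) proteins and ZBTB20 were followed in RNA sequencing counts of sorted synovial cells from mouse knees. The 5 genes are Nfia, Nfib, Nfic, Nfix and Zbtb20. They were chosen by symbol, with their levels in these libraries already known, and each matched 1 of the 47729 genes in the count table. All 5 passed the filter on low counts, which left 15015 genes. Because the choice was made with the comparisons of CD105+ with CD200+ cells in view, their differences in those comparisons are given as a description and are not used as evidence.

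The study compared synovial osteoprogenitor populations in arthritis. There were 5 libraries of CD105+CD200- cells from mice with antigen-induced arthritis (AIA), numbered 10 to 14, 5 libraries of CD200+CD105- cells from mice with AIA, numbered 5 to 9, and 4 libraries of that CD200+ phenotype from non-immunized (NI) mice, numbered 1 to 4. All mice were C57BL6 and 16 weeks old. AIA mice had been immunized with methylated bovine serum albumin in complete Freund's adjuvant and received the same antigen into the knee, NI mice received phosphate buffered saline at every step, and knees were collected at day 10 from the joint injection. Every sample held 200 to 500 cells that were without TER119, CD31 and CD45 on their surface, which mark red, endothelial and white blood cells, but with CD51, an integrin chain. CD105+ cells of NI mice are not analysed here. The CD105+ libraries went against the osteoprogenitor label: the erythroid factor Gata1 had 159 to 444 CPM in them, the osteoblast factor Runx2 had no count, and the populations are therefore called by their sort markers. Levels are in CPM, the usual scale on which each library is set to the same total of mouse gene counts, after TMM correction. The labels do not say whether samples came from separate animals, so p-values measure only the spread between these samples, which may be partly technical.

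NFI proteins are transcription factors that bind DNA as dimers. Mammals have 4 NFI genes, and their products share a DNA-binding domain at the amino end and differ more in the part that activates or represses transcription. Nfia and Nfib are best known for glial, brain and lung development, Nfic for tooth root formation and osteoblast differentiation, and Nfix for the fetal programme of skeletal muscle. Zbtb20 encodes a transcriptional repressor of the BTB zinc finger family, known for roles in hippocampus, liver, plasma cells and the terminal maturation of growth plate chondrocytes.

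The 4 NFI genes are close relatives, so their sequences were compared first, to see whether reads could be told apart. In the stretch of 120 coding bases shown here, which lies in exon 2 of each gene within the part that encodes the DNA-binding domain, 88 bases are the same in all 4 genes. Capitals mark those bases.
Nfib: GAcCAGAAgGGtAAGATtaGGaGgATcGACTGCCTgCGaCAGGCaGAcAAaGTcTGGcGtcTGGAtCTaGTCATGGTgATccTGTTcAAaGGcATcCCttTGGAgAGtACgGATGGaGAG
Nfic: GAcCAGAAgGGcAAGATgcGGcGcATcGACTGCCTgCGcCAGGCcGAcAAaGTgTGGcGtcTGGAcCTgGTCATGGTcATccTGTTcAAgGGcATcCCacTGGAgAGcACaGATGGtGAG
Nfix: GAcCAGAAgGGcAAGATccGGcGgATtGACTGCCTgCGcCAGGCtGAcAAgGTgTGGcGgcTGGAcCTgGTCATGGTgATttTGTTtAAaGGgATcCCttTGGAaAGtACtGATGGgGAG
Nfia: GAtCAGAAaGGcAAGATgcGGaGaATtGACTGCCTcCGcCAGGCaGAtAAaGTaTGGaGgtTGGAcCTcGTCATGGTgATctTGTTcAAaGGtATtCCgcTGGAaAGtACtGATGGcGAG
The stretch lies at chr4:82498353-82498472 on the minus strand in Nfib, at chr10:81420382-81420501 on the minus strand in Nfic, at chr8:84771899-84772018 on the minus strand in Nfix and at chr4:97783379-97783498 on the plus strand in Nfia (GRCm38). Of its 120 bases, Nfic shares 103 with Nfib, Nfix shares 101 and Nfia shares 96. The differing bases, in lower case, are spread along the stretch. No run of 50 bases anywhere in the annotated transcripts of a member occurred in another member. Runs shared with any other gene made up 0.358% of the runs of Nfic, 1.34% of those of Nfix, 0.371% of those of Zbtb20 and none of those of Nfib and Nfia.

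Zbtb20 spans 766.7 kb on chromosome 16 (42875881 to 43642602, plus strand), longer than 99.5% of protein-coding genes, which have a median span of 17.3 kb. Nfib spans 415.6 kb on chromosome 4 (82290173 to 82705750, minus strand) and Nfia 346.1 kb on the same chromosome (97772734 to 98118874, plus strand). Nfix spans 100.5 kb on chromosome 8 (84699876 to 84800344, minus strand) and Nfic 59.45 kb on chromosome 10 (81396186 to 81455635, minus strand). The exons of these genes cover 30.73, 14.96, 10.89, 7.35 and 6.63 kb in the same order, so levels are compared between genes only per exonic kb.

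Promoters of 300 bases, from 250 before to 50 after an annotated start, were available from RefSeq (GRCm38.p6) for 4 of the 5 genes. The NFI binding sequence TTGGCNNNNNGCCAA was searched on both strands and occurred in none of them, against 12 of 32851 promoters (0.0365%). The shorter motif TTGGC, or GCCAA on the other strand, occurred in 46.7% of all promoters. The Zbtb20 and Nfix promoters shown here belong to the members with the largest and the smallest log2 difference between CD105+ and CD200+ arthritic cells, and capitals mark the shorter motif.
Zbtb20: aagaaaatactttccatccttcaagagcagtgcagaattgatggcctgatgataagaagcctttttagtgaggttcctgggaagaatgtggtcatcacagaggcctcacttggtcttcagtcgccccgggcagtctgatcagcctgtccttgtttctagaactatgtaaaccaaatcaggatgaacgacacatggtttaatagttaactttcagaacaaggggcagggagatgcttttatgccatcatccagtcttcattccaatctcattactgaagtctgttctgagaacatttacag
Nfix: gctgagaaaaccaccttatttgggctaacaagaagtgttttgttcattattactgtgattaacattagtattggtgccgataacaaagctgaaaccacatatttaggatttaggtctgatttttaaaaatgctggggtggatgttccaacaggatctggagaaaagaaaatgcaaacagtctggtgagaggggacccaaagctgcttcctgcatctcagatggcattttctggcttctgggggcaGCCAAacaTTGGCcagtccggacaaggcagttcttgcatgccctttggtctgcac
The Zbtb20 window, at chr16:43247034-43247333 on the plus strand, held neither form of the motif and 3 CpG dinucleotides, against a median of 7 over all promoters. The Nfix window, at chr8:84772826-84773125 on the minus strand, held the motif in both orientations, 3 bases apart. Of the 4 promoters annotated for Nfix it held the most, and the others held the motif 1, 1 and 0 times. A match in letters is not a binding site, and no binding was measured.

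Zbtb20, the repressor, separated the sorted populations completely. Its level was 15.1, 43.5, 46.0, 26.6 and 15.7 CPM in CD105+ AIA libraries 10 to 14. It was 1398, 539, 1188, 1136 and 976 CPM in CD200+ AIA libraries 5 to 9, and 665, 669, 918 and 1642 CPM in CD200+ NI libraries 1 to 4. The highest CD105+ library lay far below the lowest CD200+ library, and the ranges of the CD200+ groups overlapped widely. The log2 fold change was -5.16 ± 0.46 (approximate SE) for CD105+ AIA over CD200+ AIA cells, a level 35.6-fold lower, and -5.05 ± 0.46 for CD105+ AIA over CD200+ NI cells.

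Nfib, an NFI gene known for lung and brain maturation, showed the same split. It had 7.77, 19.0, 21.2, 14.0 and 13.9 CPM in CD105+ AIA libraries, against 394, 115, 577, 317 and 475 CPM in CD200+ AIA libraries and 334, 259, 255 and 519 CPM in CD200+ NI libraries. Here too no CD105+ library reached any CD200+ library, and the lowest CD200+ value came from library 6, which was also lowest of its group for Zbtb20, Nfic and Nfia. In log2 terms it stood at -4.63 ± 0.46 over CD200+ AIA cells, a level 24.7-fold lower, and -4.49 ± 0.46 over CD200+ NI cells.

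Nfic, the NFI gene tied to tooth root and bone formation, differed less. Its level was 11.8, 33.5, 23.2, 9.37 and 8.68 CPM in CD105+ AIA libraries, against 80.5, 30.3, 94.1, 202 and 125 CPM in CD200+ AIA libraries and 41.0, 118, 29.7 and 81.0 CPM in CD200+ NI libraries. CD105+ library 11 lay above CD200+ AIA library 6 and above CD200+ NI library 3, and the other CD105+ libraries lay below every CD200+ library. The log2 fold change was -2.62 ± 0.60 over CD200+ AIA cells and -1.96 ± 0.61 over CD200+ NI cells.

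Nfix, the gene of the fetal muscle programme, overlapped widely between groups. It had 8.66, 20.5, 40.4, 49.9 and 34.3 CPM in CD105+ AIA libraries, against 9.06, 18.5, 83.1, 147 and 61.0 CPM in CD200+ AIA libraries and 76.2, 35.9, 65.9 and 191 CPM in CD200+ NI libraries. On the log2 scale Nfix differed by -1.05 ± 0.72 over CD200+ AIA cells, with an approximate 95% interval from -2.59 to 0.49, and -1.58 ± 0.76 over CD200+ NI cells. Nfix shares 137 exonic bases with G430095P16Rik, a gene on the opposite strand that was named after its values were seen. G430095P16Rik had 44.6 to 68.5 CPM in CD105+ AIA libraries, at most 2.10 CPM in CD200+ AIA libraries and no count in CD200+ NI libraries. Whether counting used strand is not stated in the labels, and the part of this gene in the Nfix counts of CD105+ cells was not tested.

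Nfia, the glial NFI gene, had 26.0, 8.78, 34.2, 27.6 and 8.38 CPM in CD105+ AIA libraries. It had 133, 0, 44.1, 40.4 and 73.0 CPM in CD200+ AIA libraries and 55.2, 59.2, 17.0 and 32.5 CPM in CD200+ NI libraries. The groups overlapped, and the value of 0 belongs to library 6, where 3 counts would equal 0.910 CPM. On the log2 scale Nfia differed by -1.47 ± 0.99 over CD200+ AIA cells (95% interval -3.60 to 0.66) and -0.96 ± 1.03 over CD200+ NI cells.

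**Figure D1:**
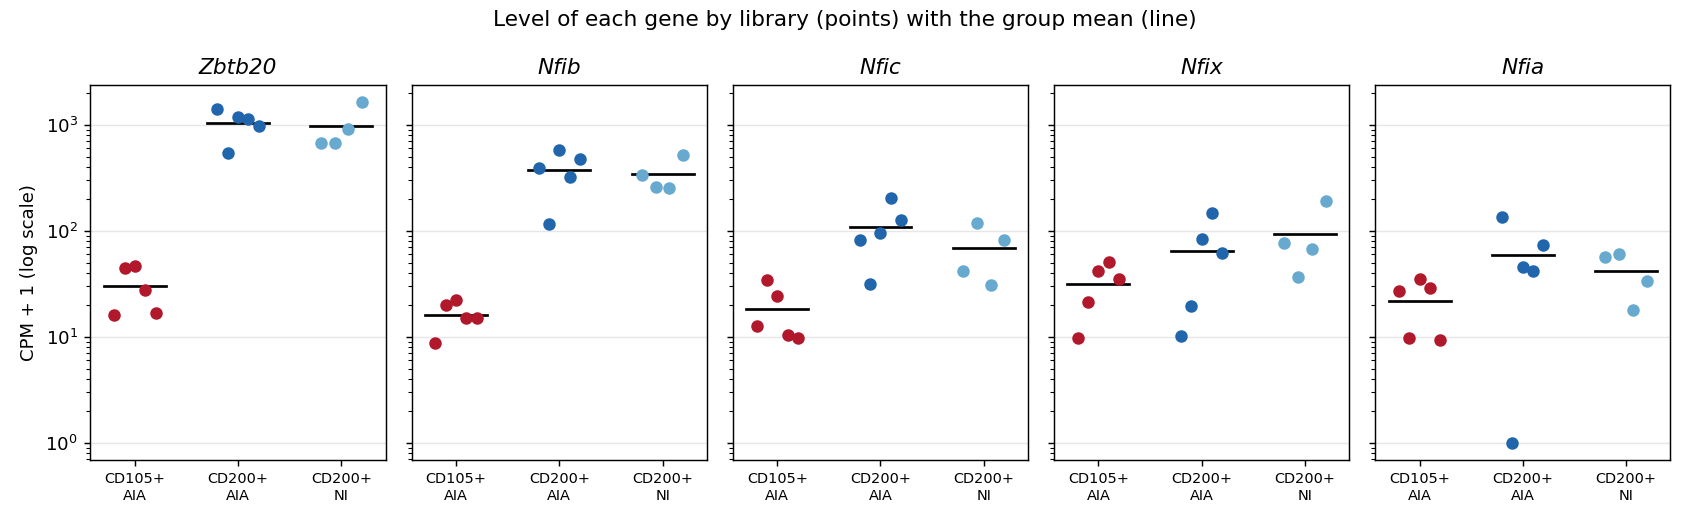
Level of each gene in CPM + 1 on a log axis, with a point for each library and a line at the group mean, for CD105+ AIA (n = 5), CD200+ AIA (n = 5) and CD200+ NI (n = 4) libraries. Zbtb20 and Nfib lie at 46.0 CPM or lower in all CD105+ libraries and at 115 CPM or higher in all CD200+ libraries, while Nfix and Nfia overlap between the groups.

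Across all tested genes, 11.3% passed an adjusted p of 0.05 in edgeR's quasi-likelihood test between CD105+ AIA and CD200+ AIA cells, and 6.48% of all genes passed as lower in CD105+ cells. Zbtb20, Nfib and Nfic were among the lower ones, so 3 of 5 members were past the threshold. Between CD105+ AIA and CD200+ NI cells, 13.2% of genes passed, 7.63% as lower, and again Zbtb20, Nfib and Nfic were among them, although Nfic passed in only 7 of 23 alternative analyses. Every CD105+ library lay below every CD200+ AIA library for 6.33% of genes and below every CD200+ NI library for 11.5%, among them Zbtb20 and Nfib. These comparisons share the CD105+ libraries, and the members were picked with them known, so nothing is read from these counts.

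When libraries were scaled by the spike-in RNA added to each sample, the median gene shifted by 1.22 on the log2 scale between CD105+ AIA and CD200+ AIA cells, against -0.05 with the usual scaling to gene counts. Relative to that median gene, Zbtb20 stood at -5.14 and Nfib at -4.75, against -5.11 and -4.58 with the usual scaling. Of the members, Zbtb20 alone then passed the threshold, with a log2 fold change of -3.92 (adjusted p = 0.0373 in edgeR), and Nfib, at -3.53, had an adjusted p of 0.0654. With each library set to the same number of spike-in counts, on the CPM scale, Zbtb20 had 11.0 to 136 in CD105+ AIA libraries, 53.1 to 1543 in CD200+ AIA libraries and 115 to 1267 in CD200+ NI libraries. The overlap came from CD200+ libraries 6 and 2, in which spike-ins took 92.0% and 85.4% of all counts.

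**Figure D2:**
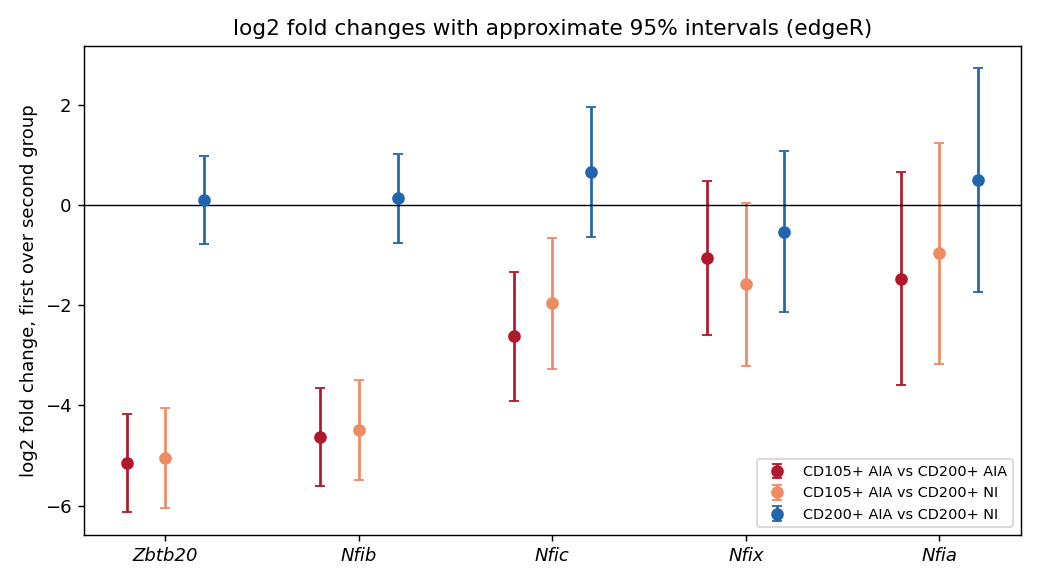
The log2 fold change of each gene in the 3 comparisons, first group over second, with approximate 95% intervals from the edgeR fit. Zbtb20 and Nfib sit between -5.16 and -4.49 in both comparisons with CD105+ cells, and every interval for CD200+ AIA over CD200+ NI cells includes 0.

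Within CD200+ cells no difference between AIA and NI mice was detected for the 5 genes at this depth and spread. None passed the threshold (edgeR adjusted p of 1 for each, lowest unadjusted p 0.295 for Nfic), and the groups overlapped for each of them, while 2.29% of all tested genes did not overlap. No gene of all tested passed either (0.0%, with 6.09% at an unadjusted p under 0.05). DESeq2 called 303 genes and limma voom 4, none of them a member. The log2 fold change was 0.11 ± 0.41 for Zbtb20, with an approximate 95% interval from -0.77 to 0.98, and 0.14 ± 0.42 for Nfib, from -0.76 to 1.03. The intervals were wider for Nfic (0.66, from -0.64 to 1.97, and 0.29 to 1.48 over 23 alternatives), Nfix (-0.53, from -2.14 to 1.08) and Nfia (0.50, from -1.73 to 2.74).

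The make-up of the NFI transcripts differed between the sorted populations. This share is taken within a library, so it does not depend on how libraries are scaled to each other. Per exonic kb, Nfib made up 8.01% to 12.8% of the summed NFI level in CD105+ AIA libraries, against 28.1% to 56.6% in CD200+ AIA libraries and 38.2% to 53.1% in CD200+ NI libraries. No CD105+ library overlapped with a CD200+ library in that share. The members were picked with their levels known, so this split partly follows from that choice and is a description. Nfib was the most abundant NFI transcript in 4 of 5 CD200+ AIA libraries and in 3 of 4 CD200+ NI libraries, and Nfic was in the other library of each group. In CD105+ cells the leading transcript was Nfix in libraries 12, 13 and 14, Nfic in library 11 and Nfia in library 10. Since the part of G430095P16Rik in the Nfix counts was not tested, the share was also taken without Nfix, a choice made after seeing the data. Nfib then made up 11.1% to 30.9% of the sum of the other NFI genes in CD105+ AIA libraries, against 38.3% to 67.9% in CD200+ AIA libraries and 42.8% to 73.8% in CD200+ NI libraries, again with no overlap. Without Nfix, the leading transcript in CD105+ cells was Nfic in libraries 11, 12 and 14 and Nfia in libraries 10 and 13.

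The ratio of Nfib to Nfix per exonic kb shows the same shift in a single number, under the same choice of members. It had a median of 0.257 (0.138 to 0.456) in CD105+ AIA libraries, 3.41 (1.06 to 21.4) in CD200+ AIA libraries and 2.03 (1.34 to 3.55) in CD200+ NI libraries. Nfix exceeded Nfib in each of the 5 CD105+ libraries and in none of the 9 CD200+ libraries. This ratio and the leading place of Nfix rest on those same Nfix counts. The ratio of Nfib to Nfic, which does not use Nfix, had a median of 0.405 (0.251 to 0.71) in CD105+ AIA libraries, 1.68 (0.696 to 2.72) in CD200+ AIA libraries and 3.23 (0.976 to 3.79) in CD200+ NI libraries. It overlapped between CD105+ AIA and CD200+ AIA libraries. The summed NFI level was 9.74 ± 3.07 CPM per kb in CD105+ AIA cells (SD, n = 5), 55.2 ± 24.2 in CD200+ AIA cells (n = 5) and 49.3 ± 18.7 in CD200+ NI cells (n = 4). In bulk samples such as these, fewer cells that carry a transcript and less of it per cell cannot be told apart.

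**Figure D3:**
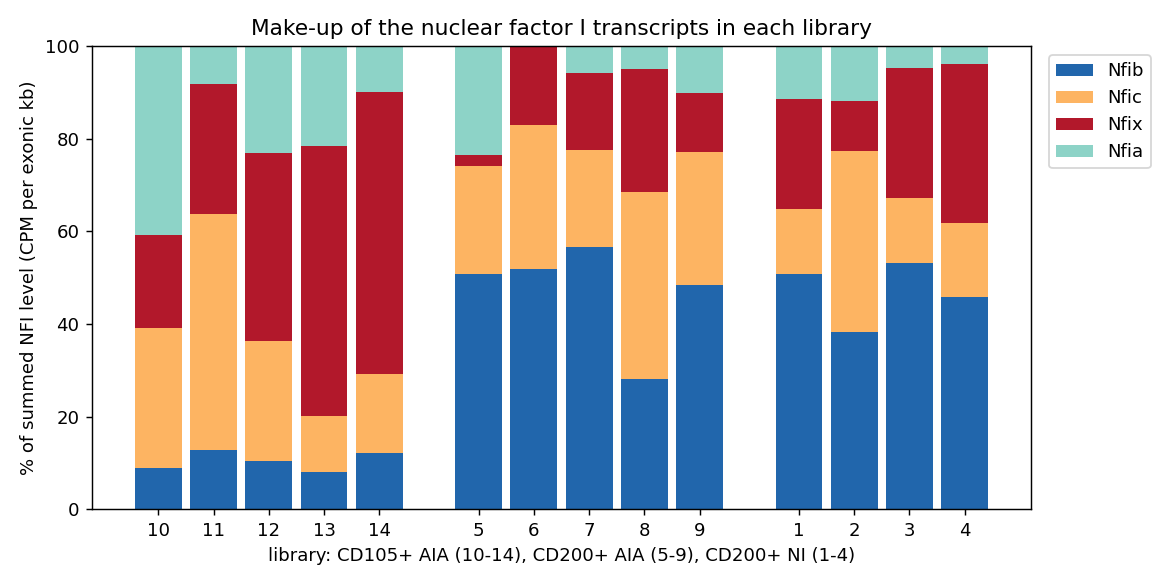
Share of each NFI gene in the summed NFI level (CPM per exonic kb) of each library, with CD105+ AIA libraries 10 to 14 at the left, CD200+ AIA libraries 5 to 9 in the middle and CD200+ NI libraries 1 to 4 at the right. The Nfib share is at most 12.8% in CD105+ libraries and at least 28.1% in CD200+ libraries.

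The genes were ordered by median level per exonic kb, taken for each gene separately. In CD105+ AIA cells the order was Nfix at 4.67, Nfia at 2.38, Nfic at 1.77, Nfib at 0.934 and Zbtb20 at 0.865 CPM per kb. Neighbours in that order overlapped across libraries, and all 5 genes lay between 0.491 and 6.79 CPM per kb. In CD200+ AIA cells the order was Zbtb20 at 37.0, Nfib at 26.3, Nfic at 14.2, Nfix at 8.30 and Nfia at 4.05 CPM per kb. In CD200+ NI cells it was Zbtb20 at 25.8, Nfib at 19.8, Nfix at 9.66, Nfic at 9.19 and Nfia at 4.02 CPM per kb. Neighbours overlapped in both CD200+ groups too. By median, Zbtb20 was at the top of the order in both CD200+ groups and at the bottom in CD105+ cells.

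The genes also differed in how evenly they were expressed among libraries of a group. The pooled SD within groups on the log2 scale was 0.65 for Zbtb20 and 0.69 for Nfib, below that of all but 12.5% and 14.7% of tested genes. It was 0.92 for Nfic, 1.27 for Nfix and 2.47 for Nfia, against a median of 1.99 over all tested genes. The Nfia value includes the count of 0 in library 6, where spike-ins took 92.0% of all counts. Its other values ran from 8.38 to 133 CPM, and the SD without that library was not taken. Genes with more counts vary less from counting alone, and Zbtb20 lay above 98.8% of tested genes in mean level, Nfib above 95.6%, Nfic above 81.5%, Nfix above 80.4% and Nfia above 70.8%.

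Profiles were compared among 8919 tested genes with a mean of at least 10 CPM, leaving out Gm, Rik and similar clone names. Of these, the gene whose profile over the 14 libraries was nearest to that of Zbtb20 was Nfib, and the gene nearest to Nfib was Zbtb20. The measure is the root mean square difference of log2 CPM after each gene is centred on its own mean. It was 0.51 for this pair, against a median of 3.07 for Zbtb20 with all the genes compared. All points share the libraries and the scaling, and the choice of members makes some likeness certain, so this is a description. After Nfib, the genes nearest to Zbtb20 were Dag1 (0.55), which encodes dystroglycan, a receptor for the matrix, and Vcam1 (0.55), a cell adhesion molecule. Vcam1 had 20.9 ± 11.1 CPM in CD105+ AIA cells, 830 ± 198 CPM in CD200+ AIA cells and 846 ± 248 CPM in CD200+ NI cells (SD, n = 5, 5 and 4).

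**Figure D4:**
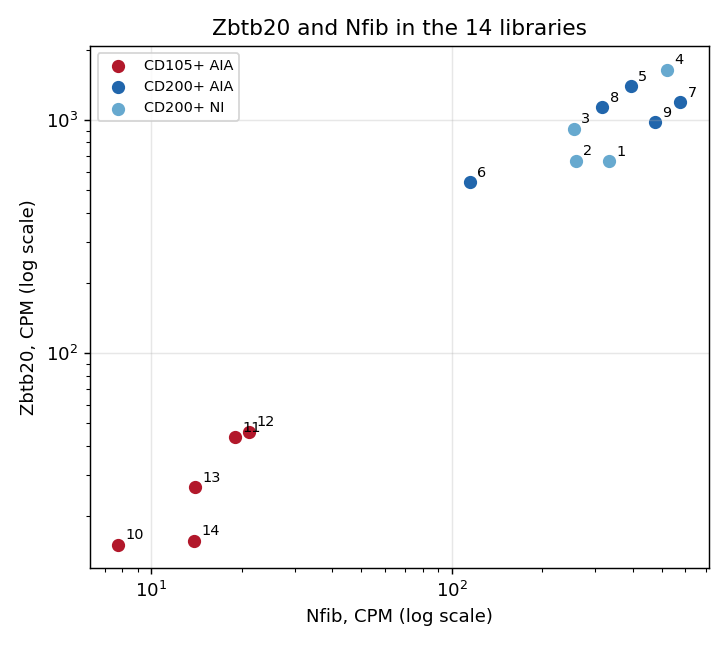
Zbtb20 against Nfib in CPM, both on log axes, with a numbered point for each of the 14 libraries. The 5 CD105+ AIA libraries lie at the lower left, at most 21.2 CPM for Nfib and 46.0 CPM for Zbtb20, apart from all 9 CD200+ libraries.

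The neighbours of the other members were of other kinds. After Zbtb20, Nfib was nearest to Sptbn1 (0.62), a spectrin of the membrane skeleton, and Btg1 (0.67), an antiproliferative factor. Nfic was nearest to Ddah2 (0.61), Cavin3 (0.66), a component of caveolae, and Mcfd2 (0.67). Nfix was nearest to Arhgef12 (0.61), Fam168b (0.62) and Col6a2 (0.66), a collagen VI chain. Nfia had no neighbour closer than Anapc4 (0.67), a subunit of the anaphase-promoting complex, followed by Mysm1 (0.78), a histone deubiquitinase, and Gmppa (0.82). Among the other members, Nfic was the closest to Nfib, at 1.28 and rank 206, while Nfix lay at rank 1333 from Nfib.

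Of the other BTB zinc finger genes, the family to which Zbtb20 belongs, 39 of 46 were tested. Between CD105+ AIA and CD200+ AIA cells 1 passed as lower and none as higher, against 6.48% and 4.79% of all tested genes. Their median log2 fold change was -0.51. The gene that passed was Zbtb33, which encodes the methyl-CpG binding repressor Kaiso. It had 1.35 ± 1.24 CPM in CD105+ AIA cells (SD, n = 5) and 16.5 ± 5.66 CPM in CD200+ AIA cells (n = 5), a log2 fold change of -3.59 ± 1.08 (edgeR adjusted p = 0.0464). No family member passed as lower in 12 of 14 fits that left out 1 library, and 1 passed as higher without library 7. DESeq2 called 3 as lower, against 2211 of all 16764 genes in its test. With voom 4 were called as lower and 1 as higher, against 2513 and 2111 of all 15015 genes. Against CD200+ NI cells Zbtb33 did not pass (-3.22 ± 1.09, edgeR adjusted p = 0.0641), and another gene, Zbtb38, was the 1 that fell (-2.04 ± 0.50, adjusted p = 0.0162). Of all tested genes, 7.63% fell against CD200+ NI cells. With spike-in scaling no family member passed in either comparison. Their median against CD200+ AIA cells was then 0.88, below the median gene at 1.22.

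Among 14 corepressors and other cofactors, all tested, Hdac1 rose and Skil fell in CD105+ AIA cells against CD200+ AIA cells. Of all tested genes, 4.79% rose and 6.48% fell. The median log2 fold change of the 14 was 0.00. Hdac1, a histone deacetylase, had 243 ± 109 CPM in CD105+ AIA cells, against 69.1 ± 24.3 CPM in CD200+ AIA cells (SD, n = 5 each), a log2 fold change of 1.81 ± 0.37 (edgeR adjusted p = 0.00765). Skil, a corepressor of TGF-beta signalling, had 4.44 ± 3.22 CPM in CD105+ AIA cells, against 63.4 ± 31.7 CPM in CD200+ AIA cells, a log2 fold change of -3.82 ± 0.90 (adjusted p = 0.0158). Neither passed with spike-in scaling.

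The other transcription factors of mesenchymal cells lay further from 0 than the median gene. Of 39 such genes 37 were tested. Of these, 10 fell in CD105+ AIA cells against CD200+ AIA cells, as did 6.48% of all tested genes, and none rose. The median log2 fold change of the 37 was -2.53, against -0.05 over all tested genes. The 10 were Tead1, Sox4, Mef2c, Tcf4, Ebf3, Foxo1, Tcf7l2, Mef2a, Zfhx3 and Zfhx4. Tead1, a partner of the Hippo pathway coactivators, had 4.28 ± 2.81 CPM in CD105+ AIA cells, against 48.8 ± 33.8 CPM in CD200+ AIA cells (SD, n = 5 each, log2 fold change -3.51 ± 0.70, edgeR adjusted p = 0.00693). Sox4, a SoxC factor of progenitor cells, had 14.3 ± 9.77 CPM in CD105+ AIA cells, against 157 ± 65.4 CPM in CD200+ AIA cells (-3.45 ± 0.70, adjusted p = 0.00768). Mef2c had 5.40 ± 3.80 CPM in CD105+ AIA cells, against 59.3 ± 46.9 CPM in CD200+ AIA cells (-3.45 ± 0.70, adjusted p = 0.00793), and Tcf4 had 37.2 ± 29.1 CPM, against 167 ± 52.4 CPM (-2.17 ± 0.47, adjusted p = 0.0114). Zbtb20 and Nfib lay lower than each of these 4 on that scale, but Ebf3, an early B-cell factor family gene, lay lower than both at -5.57 ± 1.35 (adjusted p = 0.0178). So did Foxp2 (-5.34) and Sox11 (-5.22), which did not pass (adjusted p = 0.102 and 0.187). Against CD200+ NI cells 14 of the 37 fell, as did 7.63% of all tested genes, and none rose. The list was chosen with earlier results of these data known, so these counts are a description. None of the 37 passed with spike-in scaling in CD105+ AIA against CD200+ AIA cells, and 6 passed without library 14.

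Genes reported elsewhere as targets of NFI proteins or ZBTB20 had calls in both directions. Of 14 such genes 8 were tested. In CD105+ AIA cells against CD200+ AIA cells 1 rose and 1 fell, against 4.79% and 6.48% of all tested genes. The median log2 fold change of the 8 was -2.31. Gfap, an intermediate filament gene and an NFIA target in glia, had 4.24 ± 1.85 CPM in CD105+ AIA cells (SD, n = 5) and no count in any CD200+ AIA library. Against a floor of 3 counts over that group, it was at least 73.8-fold higher (edgeR adjusted p = 0.00861). Cdkn1a, a cyclin-dependent kinase inhibitor that NFIC is reported to repress, had 17.9 ± 21.5 CPM in CD105+ AIA cells, against 192 ± 108 CPM in CD200+ AIA cells, a log2 fold change of -3.42 ± 0.81 (adjusted p = 0.0167). The number that fell was 3 without library 5, 3 without library 12 and 2 without library 6. Against CD200+ NI cells 3 of the 8 fell (Col1a1, Col1a2 and Cdkn1a), as did 7.63% of all tested genes. Gfap was the 1 that rose, as did 5.57% of all tested genes. The median of the 8 was -3.92 in that comparison. When a library was left out, 3 to 4 fell and 0 to 1 rose.

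Markers of other cell types differed too. Osteoblast and muscle markers were lower in CD105+ cells, as Zbtb20 and Nfib were, and erythroid markers were higher. All 16 erythroid markers had counts in CD105+ AIA libraries, with a summed level of 28273 to 247724 CPM, against 54.3 to 10391 CPM in CD200+ AIA libraries and 1275 to 10182 CPM in CD200+ NI libraries. The defining erythroid factor Gata1 had 302 ± 105 CPM in CD105+ AIA cells and no count in any CD200+ library, although the sort excluded TER119+ cells. Osteoblast markers, 14 of 18 with a count in CD105+ AIA cells, summed to 137 to 429 CPM there, against 23540 to 41616 CPM in CD200+ AIA and 34213 to 119637 CPM in CD200+ NI libraries, and Runx2, Sost and Mepe were among those at 0 in CD105+ cells. Muscle markers summed to 4.58 to 30.5 CPM in CD105+ AIA, 561 to 1675 CPM in CD200+ AIA and 273 to 1239 CPM in CD200+ NI libraries. Of the 16 muscle markers, 9 were at 0 in CD105+ cells, among them Pax7, Myf5 and Myog. The part of the mix of cell types in the levels of Zbtb20 and the NFI genes was not tested.

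Counted by the same test, 10 of 16 erythroid genes rose in CD105+ AIA cells against CD200+ AIA cells, as did 4.79% of all tested genes. In the same comparison 9 of 16 tested osteoblast genes and 6 of 12 tested muscle genes fell, as did 6.48% of all tested genes. The erythroid count was 6 without library 7 and 6 without library 14. Against CD200+ NI cells only 3 of 16 erythroid genes rose (Gata1, Klf1 and Alas2), as did 5.57% of all tested genes, and this count was 1 to 7 when a library was left out, with 1 without library 2, 10, 13 or 14 and 7 without library 1. In that comparison 11 of 16 osteoblast, 5 of 12 muscle and 3 of 14 cartilage genes (Col10a1, Mef2c and Vegfa) fell. So did 1 of 9 adipogenic, 1 of 8 mural and 1 of 7 synovial fibroblast genes (Adipoq, Notch3 and Pdpn), against 7.63% of all tested genes. When a library was left out, the cartilage count was 2 to 6, the adipogenic 1 to 4, the mural 1 to 3 and the synovial fibroblast 1 to 2. Against CD200+ AIA cells 2 of 14 cartilage genes (Mef2c and Vegfa) fell, and the adipogenic, mural and synovial fibroblast calls were the same. None of these lists had a gene that rose, and 6.48% of all tested genes fell. In this last comparison the cartilage count was 4 without library 12, and the adipogenic count was 3 without library 11. The mural count was 2 without library 2 or 13, and the synovial fibroblast count was 2 without library 4. Of the 7 synovial fibroblast genes, 5 lay below 0 there, and Prg4 (1.33) and Clic5 (4.68) lay above 0 without passing. The 8 markers of that list summed to a median of 2206 CPM (118 to 5667) in CD105+ AIA libraries. The sum was 1012 CPM (215 to 2248) in CD200+ AIA and 421 CPM (298 to 728) in CD200+ NI libraries. These ranges overlapped, and the sums were not tested. No gene passed of the 3 tested granulocyte, 3 macrophage, 3 B and plasma cell, 5 endothelial and 3 Schwann cell genes, although 1 Schwann cell gene rose without library 9, and no T or NK cell gene met the filter on low counts. Single libraries still held many such transcripts. Macrophage markers summed to at most 4893 CPM in CD105+ AIA libraries, with a median of 13.9 CPM. B and plasma cell markers summed to 6755 CPM in CD200+ NI library 3, against a group median of 85.3 CPM. Granulocyte markers summed to at most 3761 CPM in CD200+ NI libraries, with a median of 991 CPM. Cd200, the sort marker, had 2.29 ± 5.12 CPM in CD105+ AIA cells, all of it in 1 library, against 418 ± 98.4 CPM in CD200+ AIA and 590 ± 177 CPM in CD200+ NI cells. Eng, which encodes CD105, had 6.60 ± 4.85 CPM in CD105+ AIA and 0.502 ± 0.582 CPM in CD200+ AIA cells. Its level in CD200+ NI cells was 5.27 ± 5.69 CPM. Eng did not pass in either comparison with CD105+ cells (edgeR adjusted p = 0.170 and 0.918). Ptprc, encoding the excluded CD45, had mean CPM of 6.86 in CD105+ AIA, 0.0150 in CD200+ AIA and 4.89 in CD200+ NI cells. Itgav, encoding the selected CD51, had 7.41, 35.8 and 32.2 in the same order. Against CD200+ AIA cells the log2 fold changes were 7.92 for Ptprc and -2.26 for Itgav (edgeR adjusted p = 0.0684 and 0.267). Neither passed in either comparison with CD105+ cells, nor did Thy1 or the CD31 gene Pecam1.

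**Figure D5:**
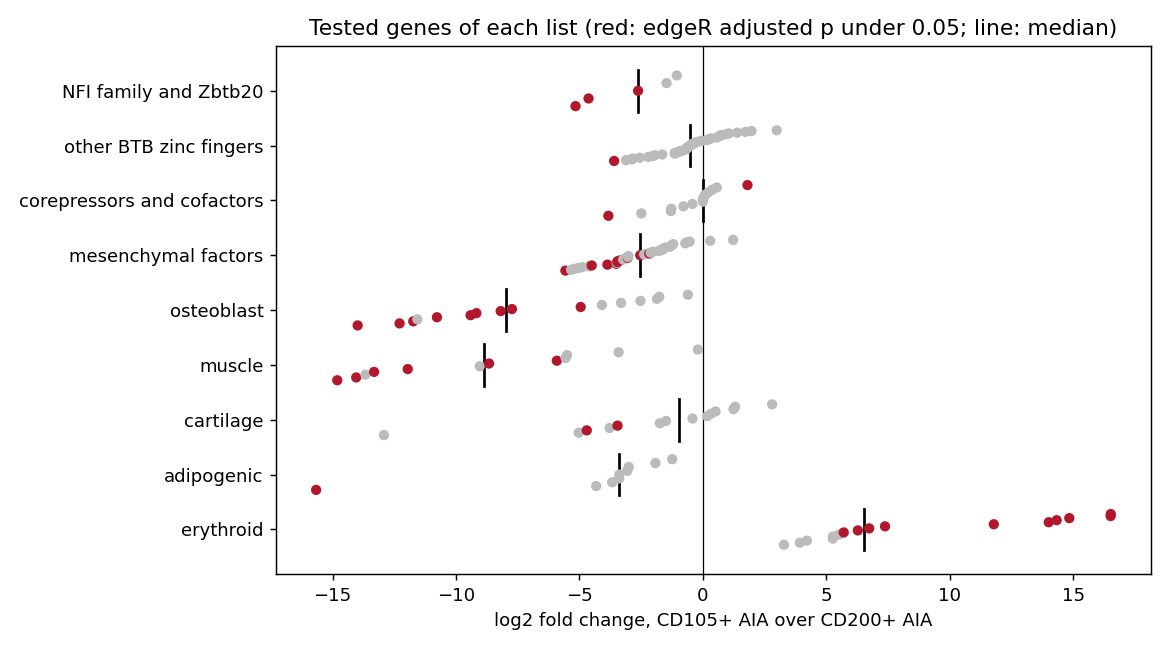
The log2 fold change of each tested gene, CD105+ AIA over CD200+ AIA cells, by list, with red points for an edgeR adjusted p under 0.05, grey points for the rest and a line at the median of each list. The medians are -0.51 for other BTB zinc fingers, -2.53 for mesenchymal factors, -7.96 for osteoblast, -8.85 for muscle and 6.51 for erythroid genes.

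Total counts per library ranged from 12177437 to 40331071, of which 2919666 to 18553803 fell on mouse genes. Spike-ins took over 80% of the counts in libraries 2, 5 and 6. In CD105+ AIA against CD200+ AIA cells, leaving out these 3 libraries gave log2 fold changes of -5.18 for Zbtb20, -4.86 for Nfib and -2.98 for Nfic, all past the threshold. At these depths 3 counts equal 0.170 to 0.910 CPM, and apart from Nfia in library 6 no member had fewer than 35 counts in any library.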

How the data were processed

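RNA of 200 to 500 sorted cells per sample was amplified with a SMART-Seq v4 kit, with ERCC spike-ins added, and made into Nextera XT libraries, per the labels' protocols. Tools named in the submitters' processing notes are cutadapt, HISAT2, StringTie and edgeR, with no version. The authors deposited whole-number counts per gene, 92 of the 47821 entries being spike-ins. A further deposited table of 14322 entries held the same raw counts and was not used. The labels do not state whether reads were counted by strand.

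GENCODE M21 (GRCm38) gave symbols for 47310 gene IDs and the exons, and promoters came from RefSeq (GRCm38.p6). Counts on genes were filtered with edgeR filterByExpr (minimum count 10), scaled by TMM, and fitted in R 4.3.3 with edgeR 4.0.16 (glmQLFit, robust, all 14 libraries in 3 groups, common biological coefficient of variation 1.28). The two-sided p-values were adjusted by the Benjamini-Hochberg method over 15015 genes and a threshold of 0.05. The SE is the absolute log2 fold change divided by the square root of F, and intervals use it. Levels per kb divide CPM by the merged exon length. Likeness used log2 CPM with a prior count of 2. The test was checked on simulated counts, with 50 genes changed at each size. It called 0 of them at a log2 change of 1, 3 at 2, 27 at 4 and 39 at 6, with 1 false call. Changes of a log2 size of 2 or less were thus seldom called.

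Alternatives were RLE factors, spike-in library sizes, no filter, 10 CPM in at least 4 libraries, non-robust shrinkage, only the 2 groups compared, DESeq2 1.42.0, limma 3.58.1 voom with sample weights, leaving out each library, leaving out those with over 80% spike-ins and, added after seeing the data, leaving Nfix out of the NFI sum. The members and gene lists were chosen with earlier results of these data known. Named were the 5 members, the 3 genes nearest to each, up to 4 genes of smallest p per list (fewer where fewer passed) and sort markers, with other genes of a list named where they were called, were at 0 or define a cell type. Floors cover counting error only, since reads carry no molecular identifiers.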

Additional observations from a re-analysis of the deposited data

How the results depend on the processing

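In CD105+ AIA against CD200+ AIA cells, Zbtb20 kept its direction and its side of the threshold in all 23 alternatives, and Nfib and Nfic in 22. The exception was spike-in scaling, which gave -3.53 for Nfib and -1.49 for Nfic and left 1 member past the threshold, with Zbtb20 at -3.92. Over these alternatives Nfia ranged from -1.79 to -0.59 and Nfix from -1.62 to -0.16, and neither passed. The number of genes past it was 1692, and 545 with spike-in scaling, 3565 with DESeq2, 4624 with voom and 1090 to 1794 when a library was left out, the lowest without library 14. Of the genes called, 57.5% were lower in CD105+ cells, and 28.4% with spike-in scaling and 47.5% with only the 2 groups compared.

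In CD105+ AIA against CD200+ NI cells, 1982 genes passed, and 278 with spike-in scaling, 4102 with DESeq2, 4993 with voom and 1308 to 2394 when a library was left out, again lowest without library 14. The share lower was 57.8%, and 39.9% with spike-in scaling, 68.1% with RLE factors and 46.2% with only the 2 groups compared. With spike-in scaling the median gene shifted by 1.21 on the log2 scale, no member (0) passed, Zbtb20 had -3.74, Nfib -3.09 and Nfic -0.12, and Nfia turned to 0.065. Nfic also missed the threshold without a filter (-1.92), with only the 2 groups compared (-1.91), with voom (-1.59), without the libraries over 80% spike-ins (-1.50) and in 11 of 14 fits that left out a library (-2.34 to -1.50 over all 14). Nfix passed it without the libraries over 80% spike-ins (-1.81, adjusted p = 0.0469).

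In CD200+ AIA against CD200+ NI cells, 0 genes passed, and 303 with DESeq2, 4 with voom and 0 to 2 when a library was left out, with 2 without library 3. No member passed in any alternative. Small differences changed sign: with RLE factors and DESeq2 Nfib had -0.026 and -0.044 and Zbtb20 -0.014 and -0.034. Leaving out a library gave -0.051 to 0.48 for Zbtb20, -0.081 to 0.41 for Nfib, 0.29 to 1.07 for Nfic, -0.048 to 0.83 for Nfia and -1.10 to 0.11 for Nfix. Nfic, at 0.66 in the fit reported, had 1.37 with spike-in scaling, 1.44 with voom and 1.48 without the libraries over 80% spike-ins, and was above 0 in all 23 alternatives. The cause of these shifts was not tested. No paired analysis was possible because the groups share no replicate numbers, and the labels do not say whether CD105+ and CD200+ arthritic samples came from the same mice. Leaving Nfix out of the NFI sum, added after seeing the data, moved the median Nfib share to 17.8% in CD105+ AIA, 55.3% in CD200+ AIA and 68.0% in CD200+ NI libraries, against 10.4%, 50.7% and 48.3% with it.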
